A study of Mus musculus with 6 samples.

Results

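The 9 genes described here, Ifi44, Ifi44l, Rsad2, Cmpk2, Mx1, Mx2, Ifi27l2a, Bst2 and Ifitm3, encode antiviral effectors whose transcription is induced by interferon. They are 9 of the 55401 genes in the deposited count table, and they were chosen by symbol with the difference between the strains in these same libraries already known. For that reason their levels and fold changes between the strains are given as a description. No p of a member is printed, and the counts of members past a threshold are set beside the share of all genes only for orientation. All 9 passed the filter on low counts, in a table of 19554 genes tested.

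RNA was sequenced from CD11b-selected brain cells of untreated MRL/lpr mice and untreated MRL/mpj mice aged 6 weeks, with 3 libraries per strain. In MRL/lpr the death receptor gene Fas holds the lpr mutation, which leads to lupus-like autoimmune disease, and MRL/mpj mice share the MRL background without that mutation. The study set the strains against each other to ask what changes in microglia of lupus mice. Microglia carry CD11b on their surface, as do other myeloid cells, so the selection does not separate microglia from every other cell, and for this experiment a figure legend counts 3 mice per strain, as many as there are libraries, while the labels do not tie each library to a mouse.

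Total counts ran from 45481609 to 49846634 per library. All 13 microglia markers on a list used to check the cell type were detected in each library, with a summed level of 24300 to 26900 CPM (counts scaled to a common library size) in MRL/lpr and 28100 to 29300 CPM in MRL/mpj. Of these markers 3 were lower in MRL/lpr at an adjusted p under 0.05 and none was higher. Other properties of the libraries moved with the strain. Xist, the RNA of the inactive X chromosome, had 8886 to 11319 counts in MRL/lpr and 27 to 38 counts in MRL/mpj, while 4 Y chromosome genes together had 8408 to 11783 and 13155 to 15046 counts. The study's methods describe female mice. Each MRL/lpr library held both Xist and Y gene counts, and whether a library mixed mice of both sexes was not tested. Sex and strain cannot be told apart in these libraries. Mitochondrial genes took 3.06% to 3.49% of counts in MRL/lpr and 5.84% to 6.38% in MRL/mpj. Markers of T cells summed to 18.1 to 25.2 CPM against 4.44 to 4.76 CPM, and markers of NK cells to 13.1 to 14.0 CPM against 3.44 to 4.57 CPM. Of the 8 T cell markers, 7 were higher in MRL/lpr at an adjusted p under 0.05 and none lower, and Cd8b1 was at 0 in each MRL/mpj library. Of the 6 NK cell markers, 4 were higher and none lower. Markers of ependyma and choroid plexus summed to 344 to 358 CPM against 1020 to 1100 CPM, and 4 of 6 were lower. Markers of plasma cells summed to 176 to 197 CPM against 148 to 157 CPM, and Mzb1 was at 0 in each MRL/mpj library. The sums also lay apart, higher in MRL/lpr, for neutrophils, endothelium with pericytes, and erythrocytes. They lay apart, lower in MRL/lpr, for astrocytes, oligodendrocytes, neurons and border macrophages. Sums overlapped for plasmacytoid dendritic cells, B cells and monocytes. The part of sex and of these cells in the values below was not tested, and in bulk RNA more cells of a type and more RNA per cell cannot be told apart.

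Interferons are secreted proteins that warn cells of infection. Type I interferons bind the receptor formed by Ifnar1 and Ifnar2, and the kinases Jak1 and Tyk2 then activate transcription factors, among them Stat2 with Irf9, at interferon-stimulated response elements in the promoters of target genes. Interferon gamma acts through another receptor and on promoters with gamma-activated sites. The induced proteins interfere with separate steps of a viral life cycle. Microglia respond to interferons, and a raised interferon signature in blood cells is a well-known feature of lupus.

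The promoters of the members show how far they share such elements in the reference genome. RefSeq windows on GRCm38.p6 from 250 bases before to 50 bases after the start were at hand for 6 of the 9 genes, Ifi44, Ifi44l, Rsad2, Cmpk2, Bst2 and Ifitm3. The core of the interferon-stimulated response element was searched on both strands as GAAA, any 2 bases and GAAA. It occurred in the windows of Rsad2, Bst2 and Ifitm3, against 3.44% of all 32851 windows. Among 33 other interferon-stimulated antiviral genes with a window, 13 held the core, against 3.99% of all 27025 genes with a window. The core was not limited to such effectors. It was held by 11 of 19 interferon ligand genes, 3 of 7 nucleic acid sensors and none of 5 interferon receptor genes with a window. The windows with a match are printed in part, with the matches in capitals, 5′ to 3′ on the strand of the gene. The stretch of Rsad2 (chr12:26456518-26456617, minus strand) has its match on the opposite strand, starting 120 bases before the start site. The stretch of Bst2 (chr8:71537542-71537647, minus strand) holds a pair of overlapping matches that begin 130 and 124 bases before the start. In Ifitm3 (chr7:141010715-141010744, minus strand) the matches lie inside the transcribed part, at bases 3 and 20.
Rsad2: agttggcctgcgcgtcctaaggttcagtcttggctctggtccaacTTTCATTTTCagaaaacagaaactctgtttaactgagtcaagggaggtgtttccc
Bst2: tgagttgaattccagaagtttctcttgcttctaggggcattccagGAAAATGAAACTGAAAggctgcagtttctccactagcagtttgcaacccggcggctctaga
Ifitm3: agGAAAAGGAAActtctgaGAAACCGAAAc

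The stretches of 100 bases next to the annotated transcripts of Ifi44 (chr3:151749961-151750060, minus strand) and Ifi44l (chr3:151762893-151762992, minus strand) are shown because these genes differed most between the strains. These letters were not found in either window. The gamma-activated site, searched as TTCNNNGAA, which reads the same on both strands, occurred in the windows of Bst2 and Ifitm3, each time overlapping a response element core, and in 8.3% of all windows.
Ifi44: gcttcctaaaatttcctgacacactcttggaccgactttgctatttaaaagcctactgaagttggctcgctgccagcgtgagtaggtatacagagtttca
Ifi44l: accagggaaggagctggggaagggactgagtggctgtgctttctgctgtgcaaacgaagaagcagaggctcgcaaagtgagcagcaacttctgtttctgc

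In each of the 9 genes the lowest MRL/lpr library lay above the highest MRL/mpj library. Such a separation was seen in 19.6% of all genes tested in this direction and in 19.4% in the other. The fitted log2 fold changes of MRL/lpr over MRL/mpj ran from 0.80 for Ifitm3 to 9.10 for Ifi44l, with a median of 2.11, where the median of all genes tested was -0.01. All 9 had an adjusted p under 0.05, against 11.1% of genes tested in this direction, and in 7 the log2 fold change also reached 1, against 4.67%. Bst2 and Ifitm3 were the members below that fold change. Over all genes, 914 were higher and 716 lower by that limit, and 766 were higher and 932 lower when libraries were scaled by their totals only, under which the same 7 members passed. Nothing is read from these counts, since the members were picked on this contrast. The plot of levels by library shows the separation and the wide range of sizes.

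**Figure D1:**
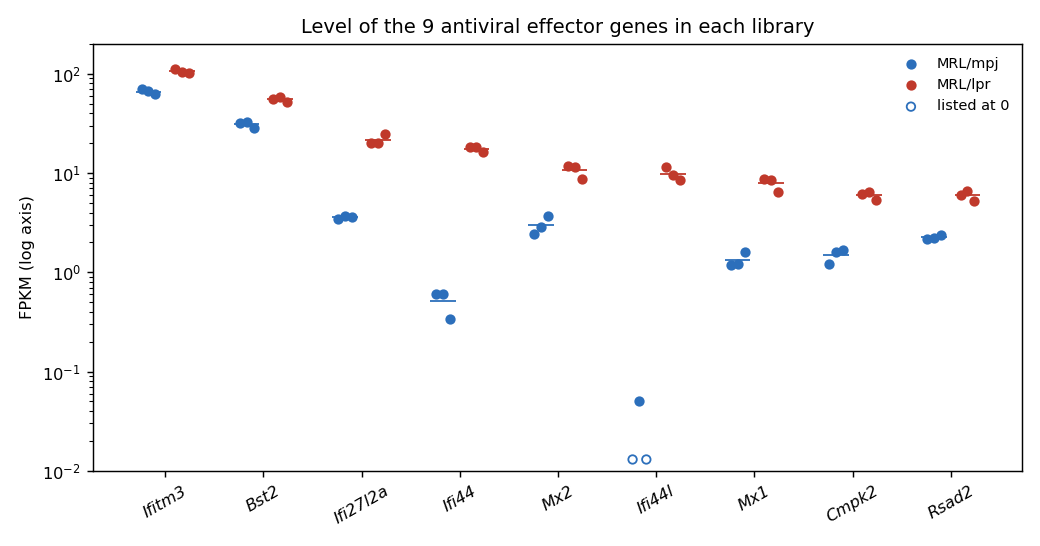
Deposited FPKM (fragments scaled by gene length and depth, log axis) of each gene in each library, MRL/mpj in blue and MRL/lpr in red, with a horizontal line at the mean of 3 libraries and open circles for libraries listed at 0, which have no place on a log axis. Ifitm3 and Bst2 are the most abundant genes in both strains, and the gap between the strains is widest for Ifi44l and Ifi44.

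Ifitm3 and Bst2 act at the cell's membranes, at the first and last steps of an infection. Ifitm3 (ENSMUSG00000025492, chromosome 7, 141009586 to 141010770) encodes a small membrane protein of endosomes that hinders fusion of enveloped viruses. It reached 86.6, 81.5 and 83.6 CPM in the MRL/lpr libraries and 50.7, 48.8 and 45.5 CPM in the MRL/mpj libraries, after scaling by the trimmed mean of M values (TMM). The libraries within each strain lay close together, and its log2 fold change (log2FC) was 0.80 (standard error, SE, 0.08), a 1.74-fold difference.

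Bst2 (ENSMUSG00000046718, chromosome 8, 71534255 to 71537456) encodes tetherin, which holds budding virus particles at the cell surface. Its level was 58.0, 60.3 and 56.9 CPM in MRL/lpr and 31.3, 31.6 and 27.3 CPM in MRL/mpj. The strains were again clearly apart, with a log2FC of 0.96 (SE 0.09), just under the fold-change limit of 1. Bst2 also marks plasmacytoid dendritic cells in mice. The 8 other markers listed for that cell type summed to 146 to 180 CPM in MRL/lpr and 135 to 160 CPM in MRL/mpj, mostly from Tcf4, a broadly expressed gene with 146 and 121 CPM on average. None of the 7 that were tested was higher at an adjusted p under 0.05, 2 were lower, and none of the 8 was at 0 in all 6 libraries.

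Rsad2 and Cmpk2 are neighbours that act on nucleotides. Rsad2 (ENSMUSG00000020641, chromosome 12, 26442746 to 26456452) encodes viperin, an enzyme that turns CTP into a chain terminator of viral RNA polymerases. It was measured at 29.9, 32.9 and 27.6 CPM in MRL/lpr and at 10.1, 10.4 and 11.0 CPM in MRL/mpj. Its log2FC was 1.52 (SE 0.11), the smallest among the 7 members above the limit.

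Cmpk2 (ENSMUSG00000020638, chromosome 12, 26469204 to 26479837) encodes a mitochondrial kinase of nucleoside monophosphates. Its level was 29.5, 31.0 and 26.9 CPM in MRL/lpr and 5.47, 7.28 and 7.48 CPM in MRL/mpj. Replicate 1 was the low library in MRL/mpj, and the log2FC was 2.11 (SE 0.15). Cmpk1, which encodes the cytosolic kinase of the same substrates, had 45.9 ± 6.4 CPM (SD, n = 3) against 45.4 ± 3.8 CPM (SD, n = 3), with a log2FC of 0.02 (SE 0.12, edgeR adjusted p 0.953).

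Mx1 and Mx2 encode dynamin-like GTPases that trap viral components, in mice in the nucleus and in the cytoplasm. Many inbred mouse strains carry defective Mx alleles, and GENCODE M21 lists Mx2 of the reference strain as a polymorphic pseudogene and Mx1 as protein coding. A count per gene does not show whether the transcript encodes a working protein.

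Mx1 (ENSMUSG00000000386, chromosome 16, 97447035 to 97462907) had 38.4, 37.4 and 29.7 CPM in MRL/lpr and 4.90, 4.92 and 6.52 CPM in MRL/mpj. MRL/lpr replicate 3 was the low library of its strain and MRL/mpj replicate 3 the high one, and the log2FC was 2.69 (SE 0.16). Mx2 (ENSMUSG00000023341, chromosome 16, 97535308 to 97560900) had 48.9, 47.8 and 38.1 CPM against 9.59, 11.0 and 14.2 CPM. The same libraries stood at the same ends, and its log2FC was 1.95 (SE 0.16). The dynamin genes Dnm2 and Dnm3, which serve endocytosis, had log2FC values of -0.05 and 0.01, at edgeR adjusted p 0.702 and 0.982. Dnm1, the form known from neurons, fell by 1.23 on the log2 scale (SE 0.36, edgeR adjusted p 0.0415). Markers of neurons summed to 10.7 to 14.2 CPM in MRL/lpr and 23.7 to 27.0 CPM in MRL/mpj. Of those 6 markers, 2 were lower, none was higher and none was at 0 in all 6 libraries, and their part in the value of Dnm1 was not tested.

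Ifi27l2a (ENSMUSG00000079017, chromosome 12, 103442167 to 103443680) encodes a small membrane protein of an interferon-induced family. Its level was 10.6, 10.6 and 13.9 CPM in MRL/lpr and 1.71, 1.84 and 1.83 CPM in MRL/mpj. It was the only member that was highest in MRL/lpr replicate 3, and its log2FC was 2.70 (SE 0.19). Its relative Ifi27, which lies 1.93 kb away, had 72.7 ± 4.71 CPM (SD, n = 3) against 51.1 ± 1.82 CPM (SD, n = 3) and rose by 0.51 on the log2 scale (SE 0.08, edgeR adjusted p 0.00192). Ifi27l2b had 0 counts in all 6 libraries. A count of 0 allows up to 3 read pairs. Counts in these files piled up at multiples of 4, so 3 pairs were taken as 12 counts, or 0.230 to 0.287 CPM depending on the library, and this limit covers counting error only.

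Ifi44 and Ifi44l are interferon-induced genes of a small family whose proteins are less well understood than the others. Ifi44 (ENSMUSG00000028037, chromosome 3, 151730922 to 151749960) had 128, 130 and 122 CPM in the MRL/lpr libraries. In the MRL/mpj libraries it had 4.07, 3.96 and 2.27 CPM, from 209, 198 and 118 counts. MRL/mpj replicate 3 was the low library, the others were close to each other, and the log2FC was 5.20 (SE 0.22), a 36.8-fold difference.

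Ifi44l (ENSMUSG00000039146, chromosome 3, 151758737 to 151762892) had 847, 716 and 592 counts in MRL/lpr and 0, 4 and 0 counts in MRL/mpj. In MRL/mpj replicate 2, 1138 genes had 4 counts, against 320 with 3 and 223 with 5, so the 4 counts may stem from 1 read pair. With the counts divided by 4, the ratio of the strains per total count was 559, with an exact 95% interval from 99.9 to 22100 that covers counting error only. The fitted log2FC of 9.10 (SE 0.53) depends on how a near-zero count is treated. Without MRL/mpj replicate 2 the remaining MRL/mpj libraries are at 0, and Ifi44l was at least 68-fold higher in MRL/lpr, taking 3 read pairs or 12 counts per library as the floor.

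**Figure D2:**
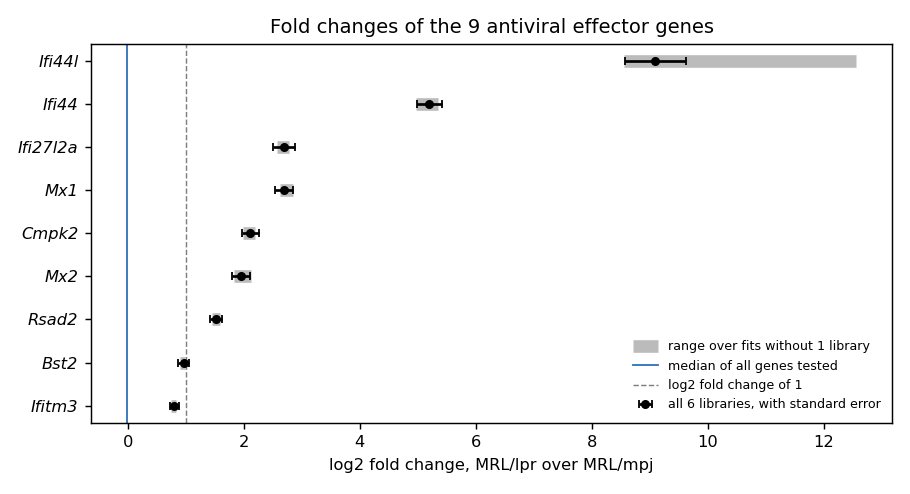
Log2FC of MRL/lpr over MRL/mpj for each gene, with its standard error (black), the range over the 6 fits that each left out a library (grey), the median of all genes tested (blue line) and a log2FC of 1 (dashed line). Ifitm3 and Bst2 lie left of the dashed line, 5 genes lie between 1.52 and 2.70, and Ifi44 and Ifi44l stand far to the right. The upper end of the grey bar of Ifi44l comes from the fit in which the MRL/mpj libraries were all at 0.

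The order of the levels between genes was taken from the deposited FPKM, which divide by gene length. In both strains Ifitm3 came first, at 106 ± 4.97 FPKM (SD, n = 3) in MRL/lpr and 66.3 ± 3.65 FPKM (SD, n = 3) in MRL/mpj. Bst2 came next in both, at 55.4 ± 3.11 FPKM and 31.0 ± 2.46 FPKM (SD, n = 3 each), and Ifi27l2a after it, at 21.5 ± 2.72 FPKM and 3.57 ± 0.139 FPKM (SD, n = 3 each). Below these the order differed. In MRL/lpr, Ifi44 followed at 17.7 ± 1.14 FPKM (SD, n = 3), separate from its neighbours in the order. Mx2, Ifi44l, Mx1, Cmpk2 and Rsad2 then ran from 10.7 down to 5.95 FPKM, and each of these overlapped with the next. In MRL/mpj, Mx2, Rsad2, Cmpk2 and Mx1 had 2.98, 2.25, 1.5 and 1.33 FPKM, and only Cmpk2 and Mx1 overlapped among them, while Ifi27l2a overlapped with Mx2. Ifi44 and Ifi44l were the lowest of the members there, at 0.517 and 0.0167 FPKM.

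Within a strain the members did not all move together from library to library. MRL/lpr replicate 3 lay below its strain's mean in 8 of the 9 genes, although Ifitm3 lay almost on it, with a median deviation of -0.11 on the log2 CPM scale. Its lowest deviation was -0.23, for Mx1 and Mx2, while Ifi27l2a stood at 0.26. In that library CT010467.1 took 6.38% of all counts, against at most 0.457% in each other library. In MRL/mpj replicate 3, Mx2, Mx1 and Cmpk2 deviated by 0.31, 0.27 and 0.16, while Ifi44, Bst2 and Ifitm3 deviated by -0.54, -0.14 and -0.09. The coefficient of variation between libraries was 2.89% for Bst2, 3.06% for Ifitm3 and 3.46% for Ifi44 in MRL/lpr. It was 16.0% for Ifi27l2a, the highest value in that strain. In MRL/mpj, leaving aside Ifi44l, it ran from 3.91% for Ifi27l2a to 29.4% for Ifi44.

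**Figure D3:**
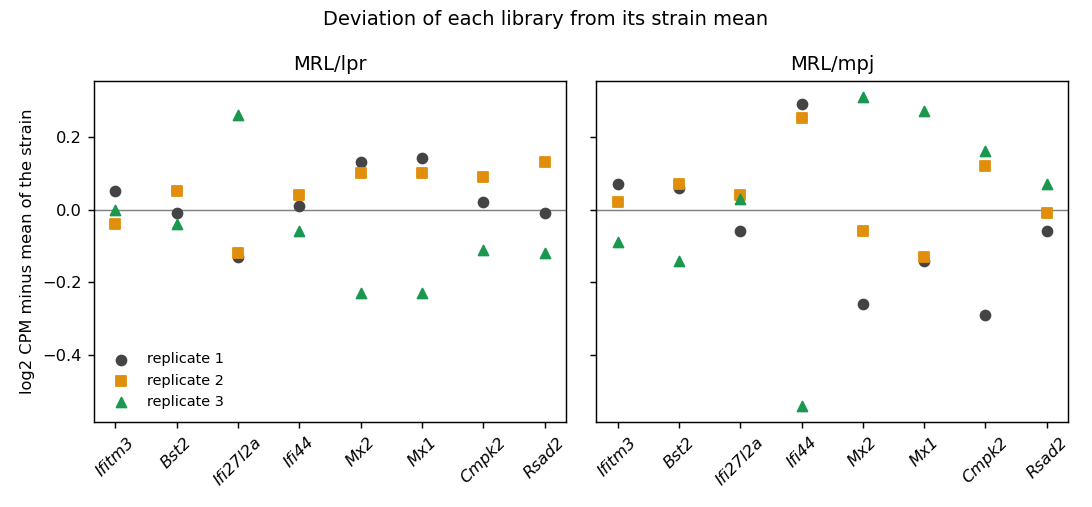
Deviation of each library from the mean of its strain on the log2 CPM scale, for 8 genes and replicates 1 to 3 of MRL/lpr (left) and MRL/mpj (right). Ifi44l is left out because its MRL/mpj counts are near 0. In MRL/lpr the triangle of replicate 3 is lowest for Mx1, Mx2, Cmpk2, Rsad2, Ifi44 and Bst2 and highest for Ifi27l2a. In MRL/mpj it is highest for Mx2, Mx1, Cmpk2 and Rsad2 and lowest for Ifi44, Bst2 and Ifitm3.

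Of the 9 genes, 6 form neighbouring pairs on their chromosomes. Ifi44 and Ifi44l lie 8.78 kb apart on the same strand, Rsad2 and Cmpk2 point away from each other with 12.8 kb between them, and Mx1 and Mx2 lie 72.4 kb apart on opposite strands. Around each member, the 3 nearest tested genes on each side held 37 genes that are not members. None of these was differentially expressed (adjusted p under 0.05 and a log2FC of 1 or more in size), against 8.34% of all genes tested. By the adjusted p alone, 4 passed, namely Dnajb4, Kidins220, Ifi27 and Ifitm6. Some neighbours lay far away, such as Adi1 at 2200 kb from Cmpk2. Some were measured with little precision, such as Pkp3 near Ifitm3, with a log2FC of 1.52 (SE 0.87, edgeR adjusted p 0.277). The lack of a call says little about such genes. Adgrl4, 186 kb from Ifi44 on one side, had a log2FC of 0.03 (SE 0.07, edgeR adjusted p 0.809). Ptgfr, 33.6 kb from Ifi44l on the other side, had a log2FC of -0.81 (SE 0.73, edgeR adjusted p 0.508). This search of the neighbours was chosen after the values of the members were seen.

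The balance within each pair also differed between the strains. The FPKM ratio of Mx1 to Mx2 was 0.747, 0.747 and 0.743 in MRL/lpr and 0.484, 0.424 and 0.437 in MRL/mpj. It was nearly constant in MRL/lpr, although both genes were lower in replicate 3. The ratio of Cmpk2 to Rsad2 was 1.03, 0.982 and 1.02 in MRL/lpr and 0.560, 0.723 and 0.708 in MRL/mpj. Ifi44l stood at 0.629, 0.521 and 0.519 of Ifi44 in MRL/lpr, and at 0, 0.0833 and 0 in MRL/mpj. In each pair the ratios of the strains did not overlap. These ratios restate the unequal fold changes of the paired genes and carry no test.

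**Figure D4:**
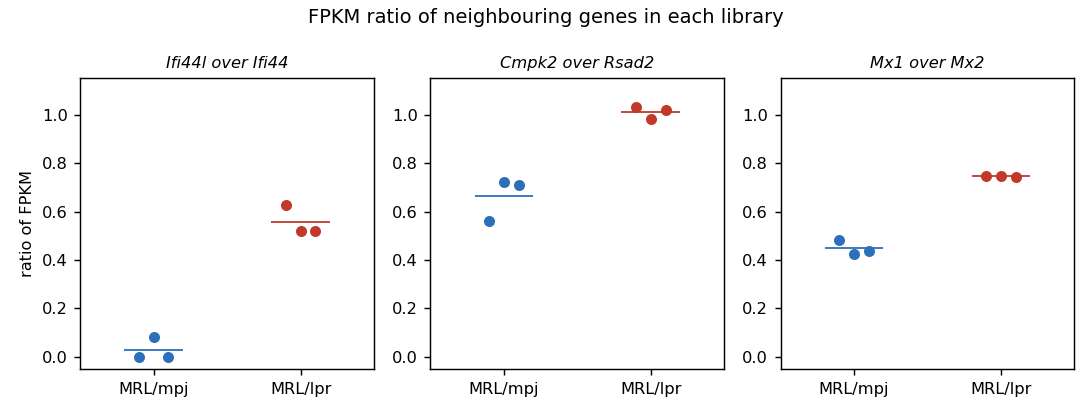
Ratio of deposited FPKM within each neighbouring pair, for the 3 libraries of MRL/mpj (blue) and MRL/lpr (red), with a line at the mean of the 3 ratios. The ratios are higher in MRL/lpr in each pair, and those of Mx1 to Mx2 in MRL/lpr lie within 0.743 to 0.747.

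The relatives of Ifitm3 were listed to compare it with its own family. Ifitm2, at 24.0 ± 2.0 CPM (SD, n = 3) in MRL/lpr and 21.8 ± 1.55 CPM (SD, n = 3) in MRL/mpj, had a log2FC of 0.13 (SE 0.11, edgeR adjusted p 0.444). Ifitm1 had a log2FC of 0.36 (SE 0.22, edgeR adjusted p 0.305). Ifitm6 and Ifitm10 rose by 0.75 and 0.58 on the log2 scale, at edgeR adjusted p 0.0422 and 0.00922. Ifitm5 and Ifitm7 had at most 16 counts in any library and were not tested. Whether these fold changes differ from that of Ifitm3 was not tested. Ifitm genes resemble each other in sequence, as do Ifi27 genes, so the authors' counting could have split reads within each family.

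Of 42 other interferon-stimulated antiviral genes, all tested, 35 were higher and 1 was lower in MRL/lpr at an adjusted p under 0.05, where 11.1% and 9.06% of all genes tested were. With a log2FC of at least 1 in size as well, 27 were higher and 1 was lower, against 4.67% and 3.66%. Their median log2FC was 1.26. The list was written with earlier results of these data known and is not independent evidence of a direction. The largest increases were those of Oas1g, Zbp1 and Ifit3b. Oas1g, of the family that senses double-stranded RNA and activates RNase L, had 253, 242 and 218 counts in MRL/lpr and 8, 8 and 4 counts in MRL/mpj, with a log2FC of 5.30 (SE 0.34, edgeR adjusted p 7.22e-06). Zbp1, a sensor of Z-form nucleic acids, rose by 4.10 on the log2 scale (SE 0.17, edgeR adjusted p 8.41e-07). Ifit3b, of a family that binds viral RNA or its partner proteins, rose by 3.35 (SE 0.19, edgeR adjusted p 3.4e-06). Oas1g and Ifit3b have close relatives, so their reads could have been split. Slfn8, a Schlafen gene, was the lower one and fell by 1.37 (SE 0.18, edgeR adjusted p 0.000615).

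Ifit2 and Trim25, named after their values were seen, show how far 1 library can decide a call. In MRL/lpr, Ifit2 stood at 10474 counts in replicate 1, 10618 in replicate 2 and 293 in replicate 3, and among the fits run it was called only without replicate 3. Trim25, a ubiquitin ligase of the Rig-I pathway, stood at 1312, 1074 and 3288 counts in the MRL/mpj libraries, and among the fits run it was called only without replicate 3. Leaving aside Ifi44l, the deviation of a member farthest from its strain's mean was that of Ifi44 in MRL/mpj replicate 3, at -0.54.

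Most ligands were not detected. Of 20 interferon genes listed, 15 had 0 counts in all 6 libraries, among them 12 of the 14 type I genes of the alpha group. Ifna2 and Ifna15 had 4 counts in 1 library each. Ifnb1, the type I interferon beta gene, had 380, 481 and 279 counts in MRL/lpr and 597, 658 and 717 counts in MRL/mpj. It fell by 0.63 on the log2 scale (SE 0.18, edgeR adjusted p 0.0336), while the 9 effectors were higher. A link between Ifnb1 and the effectors was not tested. Ifng, the only other ligand tested, had 64, 71 and 26 counts against 5, 26 and 31 counts, with a log2FC of 1.52 (SE 0.68, edgeR adjusted p 0.159).

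The type I receptor genes showed little difference. Ifnar1 had a log2FC of -0.09 and Ifnar2 of 0.07, with standard errors of 0.12 and 0.07 and adjusted p-values of 0.677 and 0.557 from edgeR. Ifngr1, the ligand-binding chain of the interferon gamma receptor, fell by 0.76 (SE 0.07, edgeR adjusted p 5.22e-05). Ifngr2 and Il10rb had log2FC values of 0.01 and -0.03, at edgeR adjusted p 0.934 and 0.818. Ifnlr1 had 23, 21 and 14 counts in MRL/lpr and 0, 0 and 8 counts in MRL/mpj, at an edgeR adjusted p of 0.155.

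Among the genes that carry the signal from the receptors, Stat2 rose by 1.21 on the log2 scale (SE 0.12, edgeR adjusted p 0.000126). Irf9, Jak1 and Tyk2 rose by 0.64, 0.53 and 0.28, at edgeR adjusted p 0.00519, 0.000234 and 0.0144. Jak2 had a log2FC of 0.09, at an edgeR adjusted p of 0.586.

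Among the 6 interferon regulatory factors, Irf7, the factor that amplifies type I interferon output, was the only one that passed. It had 49.2 ± 2.91 CPM (SD, n = 3) in MRL/lpr and 6.75 ± 0.675 CPM (SD, n = 3) in MRL/mpj, a log2FC of 2.86 (SE 0.11, edgeR adjusted p 4.66e-07). Irf1, Irf8, Irf5, Irf2 and Irf3 had log2FC values of 0.69, 0.35, 0.11, 0.08 and -0.21, with SE of 0.3, 0.37, 0.12, 0.08 and 0.1. Their edgeR adjusted p-values were 0.194, 0.602, 0.600, 0.579 and 0.166. Irf1 had 7118, 7020 and 4967 counts in MRL/lpr and 6555, 3163 and 3567 counts in MRL/mpj. Irf8 had 24250, 14245 and 14248 counts against 11832, 11402 and 23334 counts. With such a spread the lack of a call says little about Irf1 and Irf8.

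Sensors and inhibitors were mixed. Of 10 nucleic acid sensors and adaptors tested, 4 were higher and none was lower. The largest increases were those of Dhx58 and Ddx58, RNA sensors of the Rig-I family, which rose by 1.85 and 1.21, and of the adaptor gene Ticam1, which rose by 0.74, at edgeR adjusted p 3.21e-06, 7.32e-05 and 0.00125. Of 6 feedback inhibitors, 2 were higher and none was lower. Usp18, the protease that removes Isg15 and restrains the type I receptor, rose by 2.72 (SE 0.13, edgeR adjusted p 1.48e-06). Socs3 rose by 0.38 (SE 0.06, edgeR adjusted p 0.00201). Socs1, Ptpn2, Pias1 and Ptpn6 had log2FC values of 0.34, 0.21, 0.10 and -0.11, at edgeR adjusted p 0.288, 0.231, 0.601 and 0.321.

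**Figure D5:**
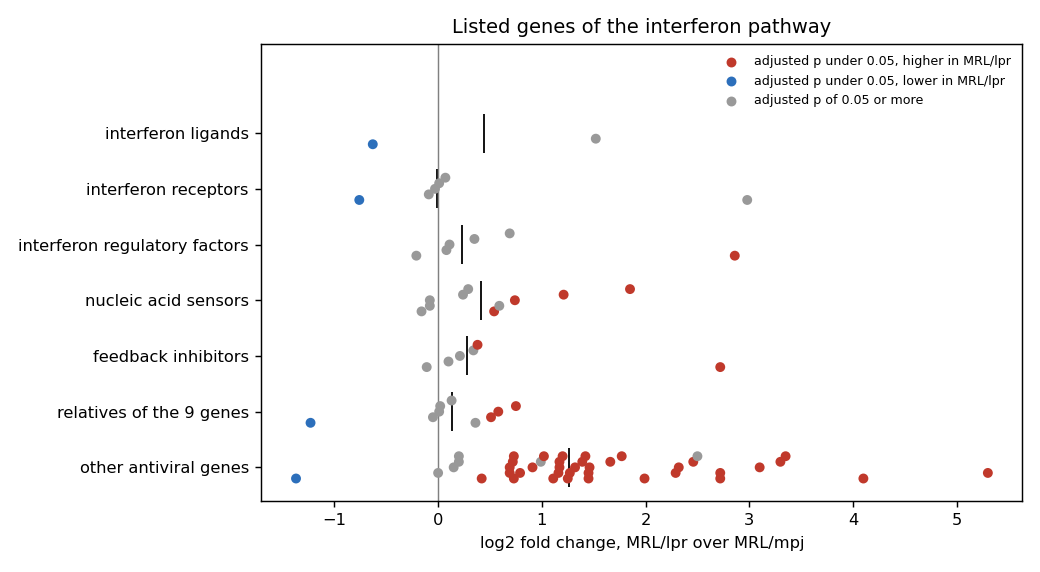
Log2FC of MRL/lpr over MRL/mpj for each tested gene of 7 lists, in red or blue where the adjusted p was under 0.05 and the gene was higher or lower in MRL/lpr and in grey otherwise, with a black line at the median of each list. The other antiviral genes have a median of 1.26, while the receptors have a median of -0.01 and only 2 of 20 ligands could be tested.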

How the data were processed

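For each library the authors deposited raw gene counts and FPKM, which they scaled by gene length and depth. The submitters' processing notes name cutadapt 1.9.3, HISAT2 2.0.4, Cufflinks, Cuffdiff 2.2.1 and the build GRCm38. The tool that counted reads and the annotation are not given in the sources used here. The labels describe removal of ribosomal RNA and a stranded kit, the methods purification of mRNA. A figure legend counts 3 mice per strain, but the labels do not tie libraries to mice. If libraries shared a mouse, p-values would measure only technical spread.

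Symbols and gene coordinates came from GENCODE M21 (GRCm38), which matched 55141 of 55401 identifiers. Counts were filtered with filterByExpr (minimum count 10, minimum total 15), scaled with TMM and tested with the quasi-likelihood test of edgeR 4.0.16 in R 4.3.3, with Benjamini-Hochberg adjustment over 19554 genes and no covariate. Differential expression meant an adjusted p under 0.05 with a log2 fold change of 1 or more in size. Each SE is the size of the log2FC divided by the square root of its quasi-likelihood F. CPM are TMM-scaled, and deviations and profiles use log2 CPM with a prior count of 2. With 3 libraries against 3 no exact permutation test can go below 0.1. Totals of 45481609 to 49846634 counts set the precision of low counts. The alternatives were DESeq2 1.42.0, other scalings, filters and dispersions, a replicate block, a test against the fold-change minimum, counts divided by 4, FPKM ratios, and each library left out. The main edgeR fit and the DESeq2 fit were tried on simulated counts.

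The members and lists were chosen with earlier results of these data known. All members are named. From lists of up to 6 genes every gene is named, from longer lists the 3 largest increases and decreases at an adjusted p under 0.05 together with every tested relative of a member. The gene nearest to each member by profile, and the 3 nearest to the median profile, are also named. Other named genes were chosen after their values were seen. From the list of signal transducers 1 result is not reported here. Of the lists, Ifi27l1 and Mb21d1 matched no symbol.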

Additional observations from a re-analysis of the deposited data

How the results depend on the processing

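Of the 9 members, the same 7 were differentially expressed under each of the 16 alternatives that give calls, under which 616 to 1921 of all genes were. The members were chosen on this contrast, so this count was largely set by their choice and is no sign of stability. The median log2 fold change of the members ran from 1.98 to 2.19 over the fits that each left out a library, and was 1.99 with scaling by library size only, which moved the median of all genes tested from -0.01 to -0.13. With that scaling Rsad2, Bst2 and Ifitm3 had log2 fold changes of 1.40, 0.83 and 0.67. It gave 2790 lower genes by adjusted p, against 1772, and 1634 higher genes, against 2178. Without MRL/mpj replicate 1 there were 1177 lower genes by adjusted p. The test against the fold-change minimum itself left 616 of the 1630 differentially expressed genes and 15 of 27 other antiviral genes that were higher. The pathway lists and the relatives of the members together held 7 differentially expressed genes, Dnm1 among those 7, and that test left 3 of them. No other alternative moved these counts by over 1.5 times.

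Same-numbered libraries of the strains did not deviate together. The correlations of their deviations were -0.041, -0.02 and -0.033. These values cannot show whether same-numbered libraries shared a day or a preparation. With a replicate block 1422 genes passed, against 1630 without it, and the counts for the members, for the other antiviral genes and for the pathway lists with the relatives were unchanged at 7, 27 and 7. Among the other antiviral genes, Oas1b was not called in 4 of the 6 fits without a library, and Adar and Ly6e were not called without MRL/lpr replicate 3, without MRL/mpj replicate 3 or with scaling by library size only. Depth limits Ifi44l in MRL/mpj and the interferon ligands.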

Other observations

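Genes outside the 9 were ranked by how close their profile over the 6 libraries came to that of each member, as the root mean square distance between log2 CPM profiles centred on their own means. The distance is dominated by the size of the strain difference, so it describes likeness in these libraries and nothing further. Usp18 was nearest to Ifi27l2a, at a distance of 0.045, and Oas1g to Ifi44, at 0.134. For the other members the nearest genes were not on the interferon lists used here, which do not hold every interferon-induced gene. Trp53bp2 was nearest to Rsad2 at 0.052, Dclk2 to Cmpk2 at 0.078, Gm4951 to Mx2 at 0.095 and Lrba to Mx1 at 0.113. Ubb was nearest to Bst2 and Mars to Ifitm3, both at 0.039. The profile nearest to Ifi44l was that of Xist, at 0.427. Xist had a log2FC of 8.53 (SE 0.14), and the part of sex in the values of Ifi44l was not tested. To the median profile of the members, Dclk2, Kif20a and Gm4951 came nearest, at 0.083, 0.087 and 0.097. Among the members themselves, Bst2 and Ifitm3 were closest to each other at 0.097, followed by Cmpk2 and Mx2 at 0.141.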
